A study of Mus musculus with 7 samples.

Results

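The genes described here are 44 genes whose proteins build ribosomes in the nucleolus, measured by RNA-seq in mouse embryonic stem cells (mESCs) and mouse embryonic fibroblasts (MEFs). They were chosen by symbol from the roles of their products, with earlier results of these data known. All 44 were found among the 55484 genes listed and among the 16580 genes with enough counts to be tested. The study used both cell types, whose molecular differences are well known, to compare sequencing platforms for open chromatin. Its deposited RNA-seq data hold 4 MEF and 3 mESC samples. MEFs are connective tissue cells cultured from the embryo's body. mESCs are kept in a pluripotent state and derive from the inner cells of the early embryo. Both had a C57/Bl6 background, and no treatment, sex, embryo age or passage is given for either. Sorting for Thy1 in MEFs, and for Ssea1 and Epcam without Thy1 in mESCs, is described for the open chromatin libraries and is not stated for the RNA libraries. The RNA extraction protocol in the labels names HSC and neither of these cell types. The study's figure legends give its RNA-seq data as n = 3 biological replicates, although 4 MEF samples are labelled. Which of the MEF samples those legends cover is not stated. The labels do not say whether the samples came from separate embryos, lines or cultures. The p-values measure the spread between these samples.

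The nucleolus forms around the repeated genes for ribosomal RNA. RNA polymerase I transcribes these repeats into a long precursor, small nucleolar ribonucleoproteins (snoRNPs) modify and help to cut it, and a small subunit processome and a series of large subunit assembly factors fold it together with ribosomal proteins. Ribosome production takes up much of the transcription of a growing cell, and the nucleoli of pluripotent cells are known to be prominent. The messenger RNAs measured here encode the machinery. Ribosomal RNA itself was not measured, because the libraries were primed on poly(A) tails.

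Library totals ran from 6528643 to 11441278 counts in MEFs and from 7462710 to 8193825 in mESCs, and libraries are called A, B and so on within a cell type by falling total. Levels are given in CPM, counts relative to the library size, after TMM scaling, which sets libraries to a common scale from genes that differ little. Before that scaling, 3 counts, taken as the floor, stood for 0.262 to 0.460 CPM depending on the library, which covers counting error only. Of 10 pluripotency markers all 10 were called higher in mESCs, with a summed level of 3235 to 3422 CPM against 32.9 to 36.7 in MEFs, where Lin28a was at 0 in 1 library. The 10 fibroblast markers were all called lower in mESCs, where their sum was 182 to 216 CPM against 25497 to 41374 in MEFs. Of the sort markers, Epcam was higher and Thy1 lower in mESCs, and Fut4 had too few counts to be tested. The summed level of 3 Y-linked genes (Ddx3y, Eif2s3y and Kdm5d) was 90.7 CPM in MEF B and 88.5 in MEF D, but 2.11 in MEF A and 0.611 in MEF C. Among mESCs it was 1.73 and 1.82 CPM in A and B and 35.8 in C. Libraries of 1 cell type therefore stood apart on these genes, and their part in the results below was not tested.

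Messenger RNAs of the ribosome assembly machinery were higher in mESCs. Of the 44 genes, 32 were called higher and 0 lower at an adjusted p of 0.05, beside 22.8% of all genes tested called higher and 25.0% called lower (quasi-likelihood test of edgeR, Benjamini-Hochberg adjusted over all genes tested, n = 4 MEF and 3 mESC). All 44 had a fitted difference above 0, from 0.05 to 2.11 on the log2 scale. The median was 0.86, a 1.81-fold higher level, and the median of all genes tested was 0.04. In bulk samples, fewer cells that use a gene and less RNA of it per cell cannot be told apart. Every mESC library lay above every MEF library for 32 genes, beside 25.8% of all genes tested. These were the genes called, apart from Rrn3, which was called although its libraries overlapped, and with Mrto4, which did not overlap and was not called.

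The differences were mostly moderate in size. Only 4 genes (Dkc1, Rrp1b, Taf1d and Ddx10) passed a test against a fold change of 2, beside 10.3% of all genes tested, which places the genes described here at about the background for large differences. Summed over the 44 genes, the level was 6471 CPM in MEF A, 4541 in MEF B, 6541 in MEF C and 4883 in MEF D, against 10271 to 11400 CPM in mESCs. Their share of all counts was 0.413% to 0.589% in MEFs and 1.12% to 1.30% in mESCs. Ncl and Npm1 alone made up 38.4% to 44.8% of the counts of the 44 genes. Without TMM scaling the median of all genes tested moved to 0.32 and that of the 44 genes to 1.15, so the median distance between them was 0.82 under either scaling, and all 44 differences stayed above 0. Without scaling, 39 of the 44 genes were called higher, the added ones being Imp3, Mrto4, Noc4l, Nol6, Nop14, Rrs1 and Utp20. Of all calls, 61% were in the higher direction without scaling, against 47.7% with it. The share of all genes tested called higher without scaling is not given here, so the added calls have no background beside them.

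**Figure D1:**
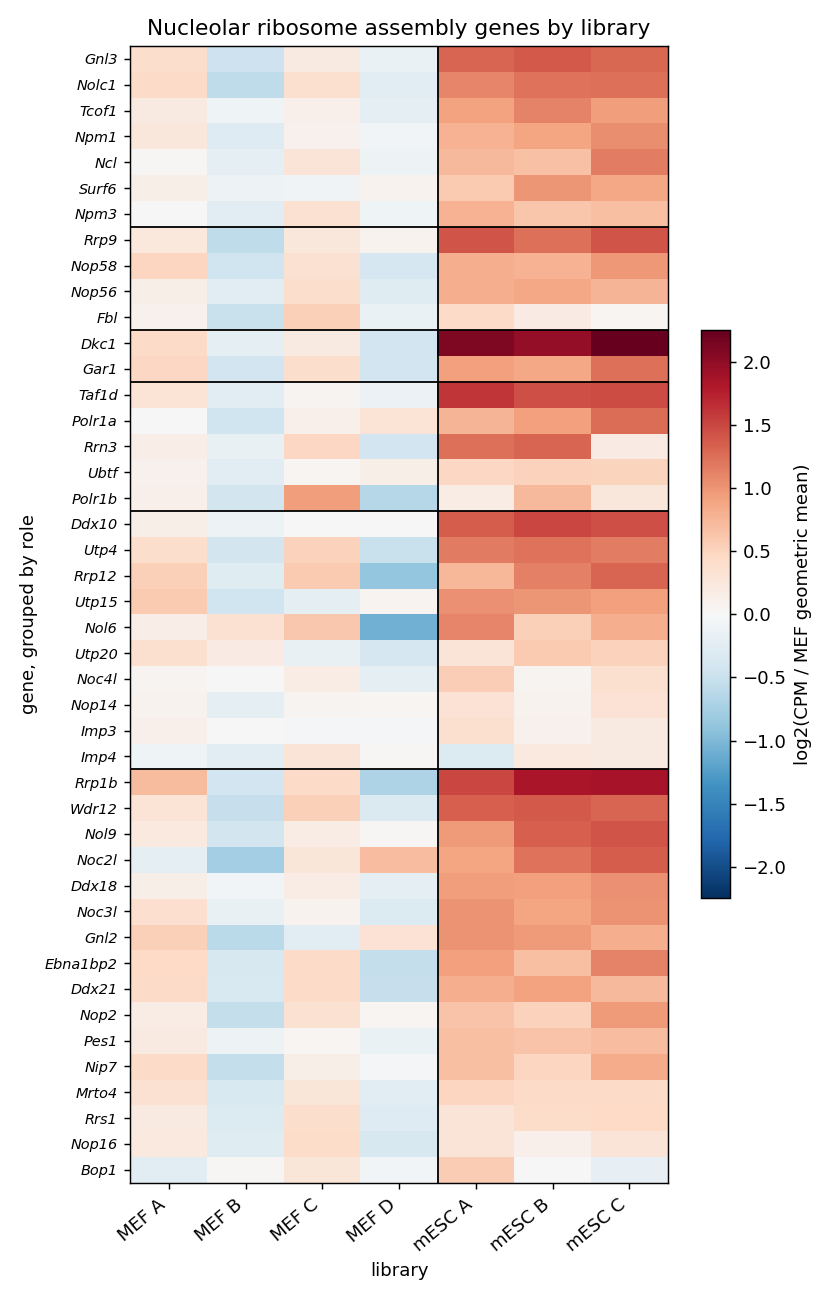
Level of each of the 44 genes (rows, grouped by role) in each library (columns), as the log2 ratio of its CPM to the geometric mean of the 4 MEF libraries; red is above and blue below that mean. The mESC columns are red almost throughout, MEF B and MEF D are mostly blue, and Rrn3 in mESC C stays close to the MEF level.

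**Figure D2:**
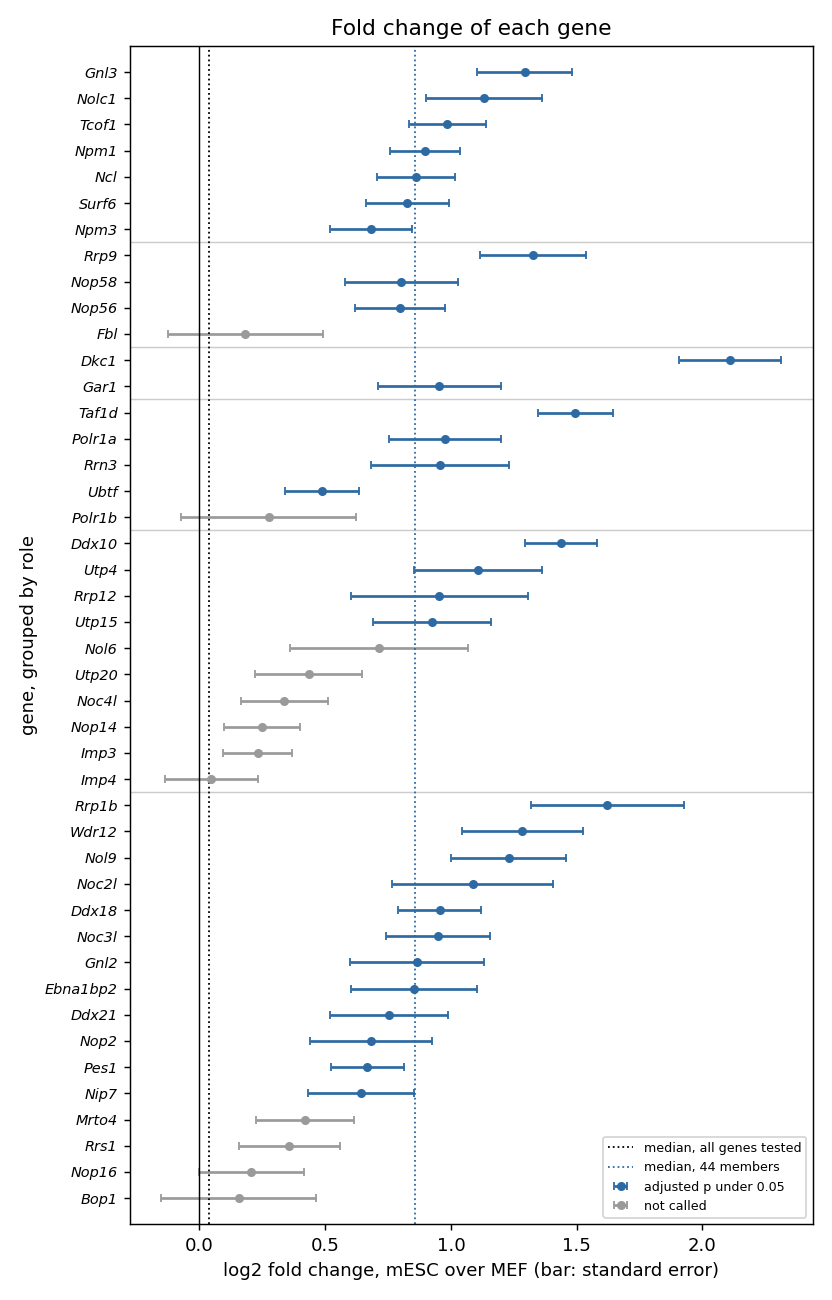
Fitted log2 fold change of each gene, mESC over MEF, with its standard error; blue marks the 32 genes with an adjusted p under 0.05 and grey the 12 that were not called. All points lie right of 0, and the small subunit processome holds 6 of the 12 grey ones.

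The 7 genes for nucleolar scaffold proteins and chaperones were all called higher, with a median log2 fold change of 0.90. Ncl encodes nucleolin, an abundant RNA-binding protein of the nucleolus (chr1:86344719-86359400 on GRCm38, minus strand). Its level was 1379.7, 1166, 1658 and 1239 CPM in MEF A to D and 2246, 2142 and 3010 CPM in mESC A to C. All mESC libraries lay above all MEF libraries, by a fitted 1.82-fold (log2 0.86, SE 0.16, adjusted p 0.00101). Npm1 encodes nucleophosmin, a chaperone of the granular layer where subunits mature (chr11:33152287-33163206, minus strand). It was measured at 1178, 809, 1058 and 951 CPM in MEFs and at 1699, 1835 and 2038 CPM in mESCs, 1.86-fold higher (SE 0.14 on the log2 scale, adjusted p 0.000344). Npm3, a smaller member of the nucleophosmin family, was at 90.5, 77.4, 115 and 84.7 CPM in MEFs and at 156, 140.3 and 145 CPM in mESCs. Its fold of 1.61 was the lowest of the 7 (adjusted p 0.00564). Counts of Npm1 and Npm3 are less certain than most, since 24.3% and 25.6% of the 50-base sequences in their transcripts also occur in other genes, among them Npm3-ps1.

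Gnl3 encodes nucleostemin, a GTP-binding nucleolar protein first described in stem cells. Its 174 to 317 CPM in MEFs and 586 to 626 CPM in mESCs gave the largest difference of this role, 2.45-fold (log2 1.29, SE 0.19, adjusted p 0.000238). Nolc1, a chaperone of snoRNPs, ran from 64.2 to 129 CPM in MEFs and from 204 to 225 CPM in mESCs, a 2.19-fold difference. Tcof1 encodes treacle, which supports transcription of ribosomal RNA genes and is mutated in a craniofacial syndrome of humans. It differed by 1.98-fold, with 77.0 to 103 CPM in MEFs and 168 to 196 CPM in mESCs. Surf6, a nucleolar matrix protein with a role in both subunits, differed by 1.77-fold, with 31.1 to 36.8 CPM in MEFs and 51.1 to 67.0 CPM in mESCs. The MEF libraries were close together for Surf6 and spread over 2.01-fold for Nolc1.

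Box C/D snoRNPs place methyl groups on ribosomal RNA, and the U3 snoRNP of this class guides early cuts. The list holds core proteins and the U3-specific Rrp9, and 3 of its 4 genes were called higher (median log2 fold change 0.80). Nop56 was at 114, 88.4, 137 and 86.1 CPM in MEFs and at 184, 191 and 178 CPM in mESCs, 1.74-fold higher (adjusted p 0.00385). Its partner Nop58 was at 489, 256, 443 and 268 CPM in MEFs and at 618, 598 and 684 CPM in mESCs, also 1.74-fold higher (adjusted p 0.0128). In both genes MEF A and C lay well above MEF B and D, yet below every mESC library. Rrp9 was at 33.1, 18.8, 33.6 and 29.8 CPM in MEFs and at 75.1, 66.1 and 75.4 CPM in mESCs, 2.51-fold higher (log2 1.33, SE 0.21, adjusted p 0.000416).

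Fbl encodes fibrillarin, the methyltransferase of the box C/D particles, and it was not called. Its level was 9.41, 6.24, 12.8 and 7.96 CPM in MEFs and 11.8, 9.99 and 9.07 CPM in mESCs, from 50 to 109 counts per library. The groups overlapped, with MEF C above every mESC library (1.13-fold, log2 0.18, SE 0.31, adjusted p 0.666). The ratio of Fbl to Nop56 counts was 0.0706 to 0.0937 in MEFs and 0.0509 to 0.0642 in mESCs, without overlap. This pair was chosen after values were seen. A library primed on poly(A) tails places most reads in the last bases of transcripts. Of the 50-base sequences in the last 500 bases, 34.2% for Fbl and 24.6% for Nop56 also occur in other genes. Over whole transcripts the shares were 19.7% and 18.6%. Whether reads were lost to such copies was not tested.

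Box H/ACA snoRNPs convert uridines of ribosomal RNA to pseudouridine, and both of the genes listed for them were called higher. Dkc1 encodes dyskerin, the pseudouridine synthase, which is also a part of telomerase, and it lies on the X chromosome (chrX:75095854-75109777, plus strand). It had the largest difference of the 44 genes. Its level was 155, 101, 133 and 86.4 CPM in MEFs and 494, 455 and 589.8 CPM in mESCs, so that the lowest mESC library was far above the highest MEF library. The fitted difference was 4.32-fold (log2 2.11, SE 0.20, adjusted p 1.24e-05). Gar1, a small core protein of the same particle, was at 86.7, 46.7, 82.7 and 47.0 CPM in MEFs and at 119, 115 and 148 CPM in mESCs, 1.94-fold higher (SE 0.25 on the log2 scale, adjusted p 0.00828). The counts of Dkc1 were 1.61 to 2.17 times those of Gar1 in MEFs and 3.96 to 4.15 times in mESCs, a pair chosen after values were seen.

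**Figure D3:**
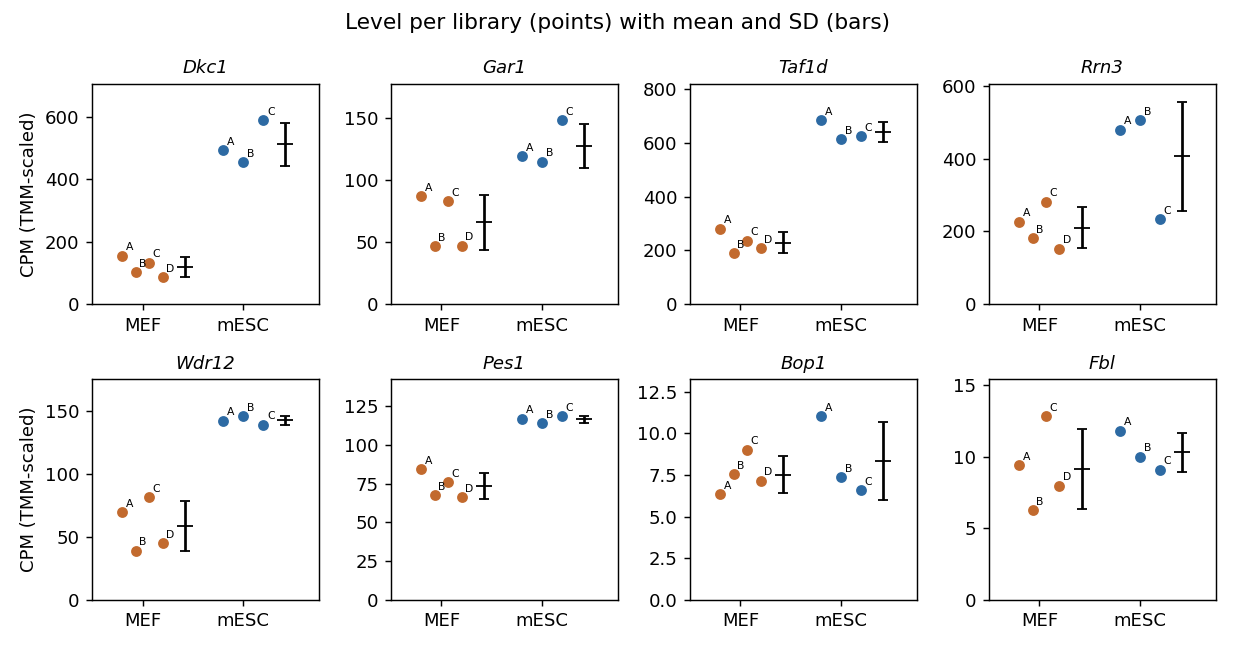
Level in CPM of 8 genes in each library (points, with the library letter) and the mean and SD of each cell type (bars), on linear axes from 0. Dkc1, Gar1, Taf1d, Wdr12 and Pes1 do not overlap between cell types, Rrn3 in mESC C falls within the MEF range, and Bop1 and Fbl overlap.

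RNA polymerase I transcription is the step that starts ribosome production, and 4 of its 5 genes were called higher (median log2 fold change 0.96). Polr1a and Polr1b encode the large subunits that form the catalytic core of the enzyme. Polr1a was at 20.1, 14.6, 21.5 and 24.7 CPM in MEFs and at 33.8, 37.8 and 47.5 CPM in mESCs, 1.97-fold higher (SE 0.22 on the log2 scale, adjusted p 0.00406). For Polr1b the groups overlapped, with 28.2, 19.4, 49.9 and 16.6 CPM in MEFs and 29.1, 43.0 and 31.1 CPM in mESCs. MEF C held the highest level of Polr1b, and no call was made (1.21-fold, SE 0.35 on the log2 scale, adjusted p 0.556). The ratio of Polr1a to Polr1b counts overlapped between cell types.

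Taf1d, a subunit of the selectivity factor that brings polymerase I to the promoter (chr9:15306214-15316991, plus strand), had the third-largest difference of the 44 genes. It was at 280.4, 190.0, 235 and 207 CPM in MEFs and at 684, 613 and 626 CPM in mESCs, 2.82-fold higher (log2 1.49, SE 0.15, adjusted p 1.62e-05). Other genes overlap 10.1% of its exon bases on the same strand. Ubtf encodes UBF, which binds along the active ribosomal RNA genes. It was at 94.6, 74.4, 91.4 and 96.8 CPM in MEFs and at 122, 127 and 126 CPM in mESCs. The difference of 1.40-fold was the smallest of those called (adjusted p 0.0178), and the call was lost without mESC B (adjusted p 0.0528) or mESC C (adjusted p 0.0542).

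Rrn3 encodes the initiation factor that links growth signals to polymerase I, and its mESC libraries disagreed. It was at 226, 181, 281 and 151 CPM in MEFs and at 479.6, 505 and 233 CPM in mESCs. In mESC A and B it was above every MEF library, and in mESC C it was below MEF C. The call (1.94-fold, SE 0.28 on the log2 scale, adjusted p 0.0147) was lost without mESC A (adjusted p 0.0667) or mESC B (adjusted p 0.067). Without mESC C the log2 fold change was 1.23 (adjusted p 0.00179), and over all libraries left out in turn it ran from 0.77 to 1.23. Rrn3 was the 1 gene of the 44 for which mESC C lay more than 1.5-fold below the mean of mESC A and B, as it did for 2019 of all genes tested. None of the 50-base sequences of Rrn3 occurs in another gene.

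The small subunit processome assembles around the growing precursor, and 4 of its 10 genes were called higher (median log2 fold change 0.57). Without TMM scaling 5 of the other 6 (Imp3, Noc4l, Nol6, Nop14 and Utp20) were called as well, and whether this role differed from the others was not tested. Ddx10, an RNA helicase (chr9:53098635-53248053, minus strand), had the clearest of them. It was at 40.9, 34.5, 37.4 and 37.4 CPM in MEFs and at 96.2, 106 and 103 CPM in mESCs, with little spread within either cell type (2.71-fold, log2 1.44, SE 0.14, adjusted p 1.56e-05). Utp4 and Utp15 belong to the subcomplex that joins the precursor first. Utp4 ran from 25.5 to 51.9 CPM in MEFs and from 80.8 to 84.0 CPM in mESCs (2.16-fold, adjusted p 0.00424), and Utp15 from 22.0 to 45.5 and from 57.1 to 61.2 CPM (1.90-fold, adjusted p 0.0078). Rrp12, a repeat protein needed for export of the subunits, ran from 4.93 to 13.6 CPM in MEFs and from 15.0 to 22.1 CPM in mESCs. Its call (1.94-fold, adjusted p 0.0446) was lost without MEF B, without MEF D, and without each of the mESC libraries, with adjusted p from 0.0529 to 0.139.

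The other 6 genes of the processome were not called. Imp3 and Imp4 are U3 snoRNP partners that bind Mphosph10. Imp4 was at 90.0, 81.9, 118 and 98.0 CPM in MEFs and at 77.9, 111 and 110.5 CPM in mESCs, and its fitted difference was the smallest of the 44 (1.03-fold, SE 0.19 on the log2 scale, adjusted p 0.858). Imp3 was at 106, 97.6, 95.1 and 95.7 CPM in MEFs and at 127, 106 and 114 CPM in mESCs (1.17-fold, adjusted p 0.199). For Imp3 only mESC B fell within the MEF range, while for Imp4 mESC A was the lowest of all 7 libraries.

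Nop14 and Noc4l encode proteins that bind each other in the processome. Nop14 was at 75.0, 61.5, 74.0 and 72.6 CPM in MEFs and at 88.7, 74.5 and 88.2 CPM in mESCs (1.19-fold, adjusted p 0.206). Noc4l was at 47.6, 45.3, 51.0 and 39.3 CPM in MEFs and at 67.2, 47.7 and 58.4 CPM in mESCs (1.26-fold, adjusted p 0.138). In both genes mESC B was the library that overlapped with MEFs. Nol6, which binds early processing intermediates, was at 11.2, 12.8, 15.4 and 4.77 CPM in MEFs and at 21.9, 14.6 and 17.9 CPM in mESCs. Its 1.64-fold difference had a wide error (SE 0.35 on the log2 scale, adjusted p 0.123), and its MEF libraries spread over 3.23-fold, the most of the 44. Utp20, a large helical repeat protein, was at 35.2, 31.3, 24.4 and 21.2 CPM in MEFs and at 33.4, 41.1 and 39.2 CPM in mESCs (1.35-fold, adjusted p 0.118).

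Large subunit assembly was the largest role, and 12 of its 16 genes were called higher (median log2 fold change 0.80). Pes1, Bop1 and Wdr12 form the PeBoW complex, which is needed for processing of the RNA of the large subunit. Wdr12 was at 69.4, 39.0, 81.5 and 45.0 CPM in MEFs and at 143, 146 and 139 CPM in mESCs, 2.44-fold higher (log2 1.28, SE 0.24, adjusted p 0.00123). Pes1 was at 84.4, 67.7, 75.7 and 66.4 CPM in MEFs and at 117, 114 and 119 CPM in mESCs, 1.59-fold higher (SE 0.15 on the log2 scale, adjusted p 0.00319). For Bop1 the levels were 6.34, 7.56, 9.01 and 7.16 CPM in MEFs and 11.0, 7.38 and 6.60 CPM in mESCs, from 45 to 102 counts per library. Only mESC A was above the MEF range of Bop1, and no call was made (1.11-fold, SE 0.31 on the log2 scale, adjusted p 0.712). The ratio of Pes1 to Wdr12 counts was 0.929 to 1.74 in MEFs and 0.780 to 0.851 in mESCs. That of Bop1 to Wdr12 was 0.0913 to 0.194 in MEFs and 0.0473 to 0.0775 in mESCs. These pairs were chosen after values were seen, and how often other pairs of genes fail to overlap was not counted. The ratio of Bop1 to Pes1 counts overlapped. Of the 50-base sequences of Pes1 transcripts, 23.3% occur in other genes, and of those of Wdr12 6.14%. In the last 500 bases the shares were 28.6% and 12.6%.

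Rrp1b, a nucleolar protein that also binds chromatin (chr17:32036100-32062865, plus strand), had the second-largest difference of the 44 genes. It was at 79.0, 35.9, 65.0 and 29.8 CPM in MEFs and at 137, 172 and 176 CPM in mESCs, 3.08-fold higher (log2 1.62, SE 0.31, adjusted p 0.00127). Ebna1bp2, the partner of this protein family in early large subunit particles, ran from 82.0 to 162 CPM in MEFs and from 190.0 to 258 CPM in mESCs (1.81-fold, adjusted p 0.0166). Its call was lost without mESC C (adjusted p 0.0665). Nol9, a kinase that prepares RNA ends during spacer removal, ran from 9.72 to 15.0 CPM in MEFs and from 25.0 to 34.4 CPM in mESCs, 2.35-fold higher (adjusted p 0.00118).

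Noc2l and Noc3l work with assembling large subunits on their way out of the nucleolus. Noc3l ran from 15.4 to 24.8 CPM in MEFs and from 35.2 to 38.4 CPM in mESCs (1.93-fold, adjusted p 0.00321). Noc2l ran from 6.96 to 19.3 CPM in MEFs and from 22.1 to 30.6 CPM in mESCs, 2.12-fold higher (adjusted p 0.0166), and lost its call without mESC C (adjusted p 0.0597). The antisense gene Samd11 covers 20.9% of the exon bases of Noc2l, and all (100%) of the 50-base sequences in the last 500 bases of Noc2l transcripts also occur in other genes, Samd11 first among them. Since the strand setting of the counting is not given, reads of this pair cannot be told apart. Samd11 itself held 0 to 5 counts per library. The helicase Ddx18 ran from 24.2 to 31.6 CPM in MEFs and from 53.8 to 57.4 CPM in mESCs, 1.94-fold higher (adjusted p 0.000757), although 55.9% of its 50-base sequences occur in other genes. The helicase Ddx21, which links polymerase I and II transcription with RNA processing, ran from 159 to 311 CPM in MEFs and from 378 to 428 CPM in mESCs. Its call (1.68-fold, adjusted p 0.0215) was lost without MEF B, mESC A or mESC B (adjusted p 0.0562 to 0.0636).

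Nop2, a cytosine methyltransferase of large subunit RNA, ran from 12.2 to 22.4 CPM in MEFs and from 25.4 to 34.4 CPM in mESCs. Its call (1.60-fold, adjusted p 0.0379) was lost without MEF A, B or D or without mESC A or C, with adjusted p from 0.0528 to 0.148. Nip7, which binds precursor RNA, was at 151, 78.0, 123 and 111 CPM in MEFs and at 181, 159 and 202 CPM in mESCs (1.56-fold, adjusted p 0.0266). It lost its call without MEF D, mESC A or mESC C (adjusted p 0.0544 to 0.0994). The GTPase Gnl2, which acts in nuclear maturation of the large subunit, ran from 13.1 to 29.0 CPM in MEFs and from 35.3 to 40.4 CPM in mESCs (1.82-fold, adjusted p 0.0205). Its call was lost without MEF C, mESC A or mESC B (adjusted p 0.0521 to 0.0668). Of the 32 genes called, 23 kept the call whichever library was left out.

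The other 3 uncalled genes of this role were Nop16, Rrs1 and Mrto4. Nop16 was at 63.1, 44.9, 72.1 and 42.3 CPM in MEFs and at 66.7, 58.8 and 66.6 CPM in mESCs (1.15-fold, adjusted p 0.451). Rrs1, which takes part in placing the 5S particle, was at 55.3, 38.9, 63.5 and 39.5 CPM in MEFs and at 59.0, 64.5 and 65.6 CPM in mESCs (1.28-fold, adjusted p 0.171). Mrto4, which holds the place of a stalk protein until export, was at 73.6, 45.8, 70.4 and 49.0 CPM in MEFs and at 81.7, 78.4 and 79.0 CPM in mESCs (1.34-fold, adjusted p 0.102). In all 3 genes MEF A and C lay close to the mESC libraries and MEF B and D well below them.

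That pattern ran through most of the genes. MEF A and C were both above MEF B and D for 32 of the 44 genes (72.7%), and both below for 0. Over all genes tested the shares were 21.7% above and 22.6% below. The median log2 ratio of the mean of A and C to the mean of B and D was 0.46 for the 44 genes and 0.00 for all genes tested. Rrp1b (2.195-fold), Polr1b (2.17-fold) and Rrp12 (2.15-fold) had the highest ratios, and Noc2l, at 0.943, the lowest. The same pairs of libraries differed in the Y-linked genes given above, at 0.611 to 2.11 CPM in A and C and 88.5 to 90.7 in B and D, and the part of this difference was not tested. The summed fibroblast markers were lower in A (25497 CPM) and C (29490 CPM) than in B (41374 CPM) and D (33165 CPM), the opposite order to that of the 44 genes, and the summed pluripotency markers were at 32.9 to 36.7 CPM in all 4. Single fibroblast markers were not uniform. Col1a2, Col3a1, Twist1, Prrx1, Pdgfrb, Fbn1 and Loxl1 had the order of the sum, and Col1a1 interleaved. Thy1 and Vim were higher in A and C, Vim at 2305 and 2285 CPM against 1782 and 1967 CPM in B and D. The part of the fibroblast markers was not tested either. The range over libraries was wider in MEFs than in mESCs. The highest library was a median 1.69-fold above the lowest in MEFs, with 11 genes over 2-fold, and 1.19-fold in mESCs, with Rrn3 alone over 2-fold. A range also grows with the number of libraries, which was larger for MEFs, and the range over all genes was not compared.

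The comparison with mESCs was repeated for each of these pairs of MEF libraries, to give its range. The pairs were formed after seeing that A and C lay above B and D, so a smaller difference against A and C and a larger one against B and D follow from that choice. Against MEF A and C alone, 23 of the 44 genes were called higher. Their median log2 fold change was 0.55, beside 0.07 for all genes tested. Against MEF B and D alone, 35 were called higher and the median was 1.04, beside 0.06 for all genes tested. Of all calls, 47.7% against A and C and 48.5% against B and D were in the higher direction. These are shares of the calls and not of all genes tested. The share of all genes tested called higher in these fits is not given here, so 23 and 35 have no background beside them. Against A and C the fitted differences of Fbl (-0.13), Polr1b (-0.20), Imp4 (-0.08) and Nop16 (-0.10) turned below 0, none of them called. The 23 genes called against A and C were all among the 32, and the genes lost were Ddx21, Ebna1bp2, Gnl2, Nip7, Nop2, Rrn3, Rrp12, Ubtf and Utp15. Against B and D, Mrto4, Nop16, Polr1b and Rrs1 were added and Noc2l was lost.

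**Figure D4:**
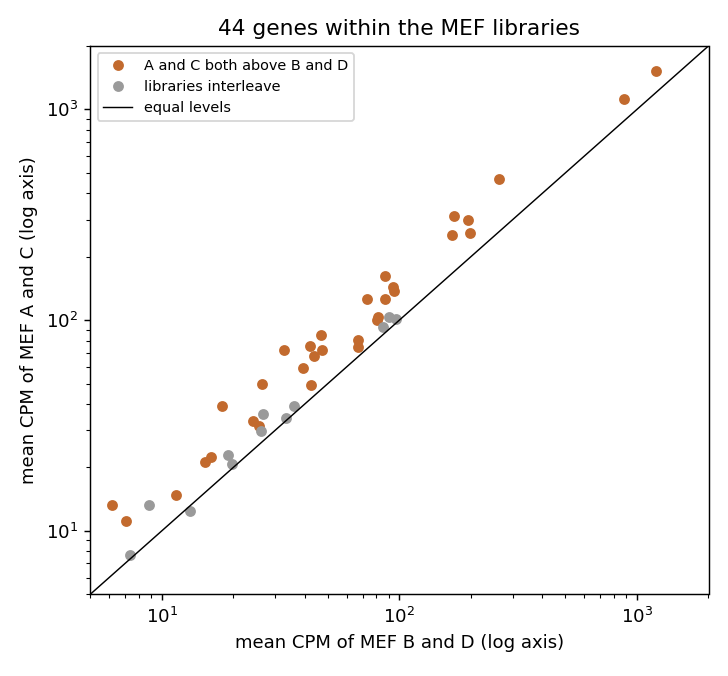
Mean CPM of MEF A and C (vertical) against mean CPM of MEF B and D (horizontal) for the 44 genes, both on log axes, with a line of equal levels. The 32 orange points are genes with A and C both above B and D, none has them both below, and all but 1 of the 44 points lie above the line.

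Several of the genes hold small nucleolar RNA genes between their start and end. Introns and exons were not told apart in this search, and Snora75, for example, overlaps 133 annotated exon bases of Ncl. In the GENCODE M21 annotation, small nucleolar RNA genes lie inside 6 of the 44 genes on the same strand (13.6%), compared with 1.79% of the 13065 protein-coding genes tested. The hosts were Taf1d with 8 such genes, Nop56 with 5, Nop58 with 4, Ncl and Gnl3 with 3 each and Dkc1 with 1. All 6 were called higher, as were 32 of the 44 genes. The share called among all host genes tested was not counted, and no link of hosting with level was tested. The small RNAs are not polyadenylated in general, and the libraries do not measure them well: their rows inside Gnl3 and Taf1d held 0 counts over all libraries, and those inside Ncl held 1096, in a single one of its 3 small RNA genes.

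Promoters of the 44 genes were compared with those of all genes tested for short letter patterns bound by known growth and housekeeping factors. RefSeq promoter windows (GRCm38.p6, 250 bases before to 50 after the start) were matched for 36 of the 44 genes and for 11001 of the genes tested. Each pattern was searched on both strands. Some genes, such as Ubtf and Wdr12, had several windows, and a gene was counted if any of its windows held the pattern. The ETS core CCGGAAG was found in 11 of the 36 promoters (30.6%) and in 18.7% of all. These were 11 of the 28 genes called higher that had a window and 0 of the 8 uncalled: Ddx10, Ebna1bp2, Gar1, Nip7, Noc2l, Noc3l, Nolc1, Nop2, Rrn3, Surf6 and Utp4. The E-box CACGTG, a site of Myc and related factors that reads the same on both strands, was found in 6 promoters (16.7%, beside 11.3% of all), those of Imp4, Nop2, Pes1, Rrn3, Utp20 and Utp4. It went the other way, with 4 of the 28 called and 2 of the 8 uncalled genes. Over all genes tested with a window, the ETS core was in 532 of the 2666 called higher and in 1046 of the 5210 not called (20.1%), close to the same share, and the E-box in 11.3% and 11.7%. No difference between called and uncalled genes among the 36 was tested. The NRF1 pattern GCGCATGC was found in that of Ubtf alone (2.78%, beside 5.77%) and the YY1 core AAGATGGCG in that of Imp4 alone (2.78%, beside 3.34%). A start of C followed by pyrimidines, with at least 5 of the first 6 letters C or T, was found in Imp3 and Npm3 (5.56%, beside 5.87%). None of these patterns contains another, a match is a description of letters, and no factor was measured on these promoters.

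The 150 bases before the start are shown for 5 of these genes, all called higher, as examples of the 2 most frequent patterns. Other genes with these patterns in the same stretch are not shown, among them Utp4, Nip7 and the uncalled Imp4. The sequence is 5′ to 3′ on the gene's strand. Capitals mark the ETS core (CCGGAAG, or CTTCCGG on the other strand) and the E-box (CACGTG). Surf6 holds 3 ETS cores in this stretch, starting 109, 44 and 8 bases before the start (chr2:26902888-26903037, minus strand).
Surf6: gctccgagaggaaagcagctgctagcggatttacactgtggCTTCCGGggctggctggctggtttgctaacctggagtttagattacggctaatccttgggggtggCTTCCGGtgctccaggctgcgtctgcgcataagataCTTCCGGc
Gar1 holds 1, 43 bases before the start (chr3:129831397-129831546, minus strand).
Gar1: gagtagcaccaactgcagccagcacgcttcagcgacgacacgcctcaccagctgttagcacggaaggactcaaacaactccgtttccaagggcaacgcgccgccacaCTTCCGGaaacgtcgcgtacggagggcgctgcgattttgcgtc
In Nolc1 it lies 14 bases before the start (chr19:46075697-46075846, plus strand).
Nolc1: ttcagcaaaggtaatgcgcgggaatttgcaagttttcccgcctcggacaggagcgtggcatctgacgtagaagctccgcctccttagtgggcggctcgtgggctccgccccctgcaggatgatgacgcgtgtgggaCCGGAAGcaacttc
Nop2 holds an E-box 60 bases and an ETS core 38 bases before the start (chr6:125131733-125131882, plus strand).
Nop2: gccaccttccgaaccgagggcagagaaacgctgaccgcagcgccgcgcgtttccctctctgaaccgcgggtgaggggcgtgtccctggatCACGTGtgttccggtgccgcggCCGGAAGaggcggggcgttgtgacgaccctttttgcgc
Rrn3 holds an E-box 48 bases before the start (chr16:13780549-13780698, plus strand), and its ETS core lies outside the stretch shown.
Rrn3: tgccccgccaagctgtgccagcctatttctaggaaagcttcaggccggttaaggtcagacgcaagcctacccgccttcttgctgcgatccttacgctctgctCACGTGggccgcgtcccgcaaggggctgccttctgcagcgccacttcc

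Other genes of the pathway, listed by their known roles, showed the same general direction with some exceptions. Of 119 further genes, 116 were tested, 69 were called higher, 3 lower and 44 were not called (median log2 fold change 0.79). The shares to set beside this and each list below are those of all genes tested, 22.8% called higher and 25.0% lower. No list was tested against them. The partners and assembly factors of snoRNPs had 9 of 12 called higher and the highest median, 1.18. Naf1 and Nhp2, which act with dyskerin in box H/ACA particles, rose by 2.45 and 1.505 on the log2 scale (adjusted p 0.000973 and 0.00053), and Nufip1, an assembly factor of box C/D particles, by 1.70. Rpap3 was called at 0.83, while Znhit6 (0.19) and Pih1d1 (-0.19) were not called. Among the added polymerase I genes, 5 of 10 were called higher (median 0.64). Baz2a, a subunit of the complex that silences ribosomal RNA genes, had the largest difference of all lists, with 13.6 to 17.5 CPM in MEFs and 124 to 152 CPM in mESCs (log2 3.17, SE 0.17, adjusted p 2.31e-07). Taf1a (1.34) and the shared subunit gene Polr1c (1.28) were called, and Polr1e (0.56), Polr1d (0.47) and Cd3eap (-0.33) were not.

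Of 33 further small subunit processome genes, 20 were called higher (median 0.66), led by Heatr1 (1.65), Nat10 (1.61), which acetylates ribosomal RNA, and Nol11 (1.30). Utp11 (-0.20), Wdr36 (-0.23) and Ddx49 (-0.28) had the smallest values and were not called. Of 38 further large subunit genes, 25 were called higher and 1 lower (median 0.86). Mdn1, the giant ATPase that strips factors from the particle, led with 2.13, followed by Urb1 (1.96) and Nol8 (1.77), whereas Ddx31 (-0.16) and Rexo4 (-0.34) were not called. The exception was Eif6, which keeps the large subunit from joining too early. It was at 112 to 157 CPM in MEFs and at 52.3 to 78.7 CPM in mESCs, 2.11-fold lower in mESCs (log2 -1.08, SE 0.19, adjusted p 0.000867).

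Late small subunit maturation had 5 of 10 genes called higher and 1 lower (median 0.52). The kinase Riok2 (1.38), the methyltransferase Dimt1 (1.24) and Tsr2 (0.96) were called higher, Pno1 (0.07) and Riok3 (-0.03) were not called, and the kinase Riok1 fell by 0.58 (SE 0.16, adjusted p 0.00979), from 63.5 to 70.5 CPM in MEFs to 38.1 to 48.2 CPM in mESCs. Without TMM scaling the call of Riok1 was lost (-0.30, adjusted p 0.133). The RNA exosome, which trims precursor RNA, had 5 of 13 genes called higher and 1 lower (median 0.60). Exosc5 (2.30) and Exosc7 (1.46) were called higher, Exosc9 had a value of 1.52 with a wide error (SE 0.66, adjusted p 0.0814), and Exosc10 (0.19) and Exosc4 (-0.11) were not called. C1d, an exosome cofactor, was at 118 to 200.3 CPM in MEFs and at 47.2 to 56.3 CPM in mESCs, 3.03-fold lower in mESCs (log2 -1.60, SE 0.20, adjusted p 7.03e-05).

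**Figure D5:**
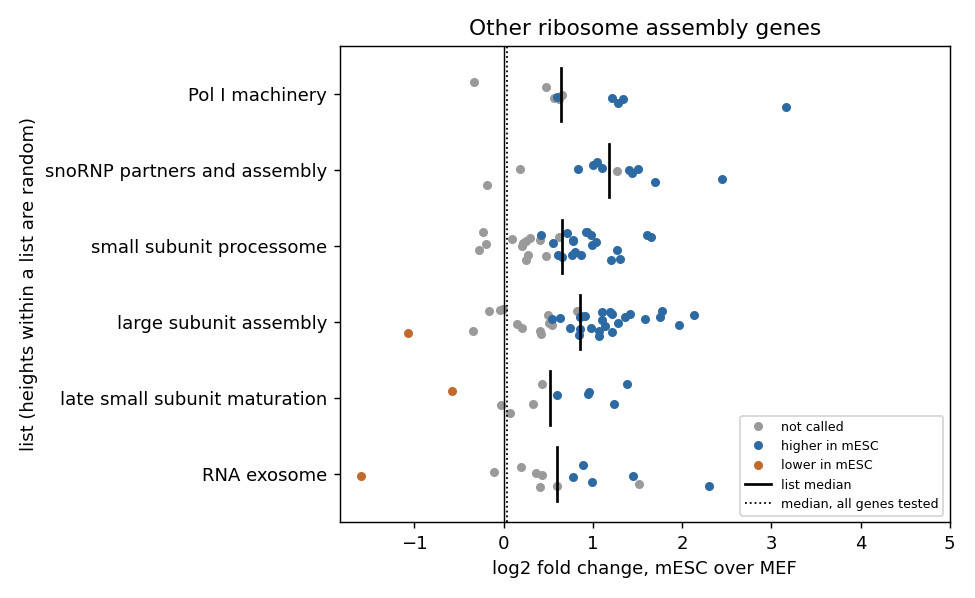
Log2 fold change, mESC over MEF, of 116 further ribosome assembly genes in 6 lists (points; their heights within a list are random), with the median of each list (bars) and of all genes tested (dotted line). Most points lie right of 0, Baz2a is farthest right at 3.17, and Eif6, Riok1 and C1d are the 3 genes called lower.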

How the data were processed

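RNA-seq gene counts of 4 MEF and 3 mESC libraries were analysed; open chromatin libraries were not used here. Per the study's methods, the authors used STAR for alignment to mm10 after demultiplexing and trimming, Je for collapsing of molecular identifiers and featureCounts for counting, and deposited whole-number counts that were not normalized. The submitters' processing notes name STAR 2.4.2a, and the study's methods name a different version of it. The annotation release and strand setting are not given in the sources used here. Libraries are primed on poly(A) tails and biased to the 3′ end. Columns name the cell type, and 0 value columns were left unused.

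Counts were tested with edgeR 4.0.16 (limma 3.58.1, R 4.3.3): TMM, filterByExpr and the quasi-likelihood test over 7 libraries, without covariates, with Benjamini-Hochberg adjustment over all genes tested and a threshold of 0.05. The standard error is the log2 fold change divided by the square root of its F. The code was tested on simulated data. Libraries of a cell type differed by 15.6 to 31.1 times the chi-square of sampling noise, so none was a copy. Alternatives were DESeq2 1.42.0, no scaling, DESeq2's size factors, other filters, a test against a fold of 2, a prior count of 0.5 in place of 2 for log2CPM, and each library left out.

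The genes and lists were chosen with earlier results of these data known, and the pairs of genes whose count ratios are given after values were seen. All 44 genes are named; values per library are given for Ncl, Npm1, Npm3, snoRNP core genes, PeBoW, Polr1a, Polr1b, Rrn3, Ubtf, the 5 largest and 5 smallest differences and every gene not called. Other lists give up to 3 genes at either end and all called lower. Nip7 is given per library outside this rule. Gene coordinates and 50-base sequences are from GENCODE M21 (GRCm38).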

Additional observations from a re-analysis of the deposited data

Results flagged for a closer look

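The 4 MEF libraries were tested for a library apart from the others in 80 genes, the 44 genes and the named genes of the other lists. Such a library was found for 1 gene. The mESC libraries were not tested in this way. Naf1, the assembly factor of box H/ACA particles, was at 10.4 CPM in MEF C and at 2.59 to 3.66 CPM in the other MEF libraries. The gap to the nearest library was 0.863 of the whole range, above Dixon's 95% critical value for 4 samples. Chance flags about 1 in 20 such groups, or about 4 of 80. All mESC libraries lay above MEF C for Naf1.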

How the results depend on the processing

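With DESeq2, DESeq2's size factors in edgeR or a filter of 10 counts in every library of 1 cell type, 32 of the 44 genes were called higher, as in the main result, and with no filter beyond 1 count 30, Nop2 and Ubtf being lost. Leaving out 1 library at a time gave 26 to 32. The share of all genes tested called higher under each of these alternatives is not given here. The number called lower was 0 under every alternative. The test against a fold change of 2 called 4 of the 44 genes, 1714 genes higher and 2277 lower over all genes, and 14 higher and 1 lower in the other lists. The median of the 44 genes was 1.15 without scaling and 0.55 against MEF A and C, the latter chosen after seeing the data. Of 660 values for single genes of the 44, 575 kept their direction and side of the threshold, 65 lost the call, 12 gained it and 8 changed sign. Of 540 values for the named genes of the other lists, the counts were 497, 11, 11 and 21.

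No call changed direction. Signs that changed were those of uncalled genes. Without scaling they were Pih1d1 (0.091), Utp11 (0.0927), Wdr36 (0.0604), Ddx49 (0.008), Ddx31 (0.13), Riok3 (0.25) and Exosc4 (0.18). Against MEF A and C they were Fbl (-0.13), Polr1b (-0.20), Imp4 (-0.0816), Nop16 (-0.10), Znhit6 (-0.0161), Pno1 (-0.24) and Exosc10 (-0.0131), and against MEF B and D they were Ddx49 (0.25), Ddx31 (0.99) and Riok3 (0.0648). Over the libraries left out in turn, the range was -0.0395 to 0.19 for Imp4, -0.10 to 0.29 for Bop1, -0.42 to 0.29 for Ddx31, -0.15 to 0.0536 for Riok3, -0.0673 to 0.20 for Pno1 and -0.0279 to 0.30 for Exosc10. The cause was not tested. Of 88 log2CPM means of the 44 genes, a prior count of 0.5 moved 0 and no scaling moved 28 by more than 1 SD. No paired analysis was possible because no source ties a count column's number to a sample. Depth is a limit for genes with few counts, such as Bop1, Fbl, Rrp12 and Nol6.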
